A study of Mus musculus with 4 samples.

Results

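The genes beside *Areg* on mouse chromosome 5 were compared between WT and *Areg*-/- Th9 cells. A gene was chosen by its name in the deposited table, and the 9 genes *Cox18*, *Naaa*, *Ccng2*, *Anxa3*, *Bmp2k*, *Hnrnpdl*, *Plac8*, *Ptpn13* and *Spp1* are 9 of the 515 genes listed there. They are the listed genes that lie within 14 Mb of *Areg*, the gene for amphiregulin, a ligand of the epidermal growth factor receptor (EGFR). *Areg* itself (ENSMUSG00000029378.5) spans bases 91139599 to 91148432 of the plus strand on GRCm38 and has no row in the table, so its own transcript could not be looked at.

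RNA was sequenced from 4 samples labelled as Th9 cells of C57BL/6 strain, 2 from wild-type (WT) mice and 2 from *Areg*-/- mice. According to the methods, naïve CD4+ T cells of mice aged 6 to 12 weeks were activated through CD3 and CD28 and polarised towards Th9 by TGF-β1 plus IL-4 over 3 days. The methods describe a single protocol for Th9 culture. They place the work on *Areg*-/- mice in Oxford, with samples then shipped to India, where the C57BL/6 mice were housed, and the site at which the WT samples were cultured is not given in the sources used here. If the sites differed, site and genotype cannot be told apart. The *Areg*-/- mice were provided by another laboratory, and no Cre driver or conditional allele is named for them. Whether the WT mice were littermates, and how often the line was crossed to C57BL/6, is not given in the sources used here. In the table the WT group carries a name saying that no doxycycline was given, whereas the *Areg*-/- name says nothing on it; the WT column was taken to be that of the WT samples, and all ratios rest on this.

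In a knockout line, the DNA next to the targeted gene is inherited along with it, and for this reason the neighbours of a targeted gene are looked at separately from genes elsewhere. *Areg* stands in a cluster of EGFR ligand genes, together with *Ereg*, *Epgn* and *Btc*, and close to the CXC chemokine genes. The 9 listed neighbours do not belong to a common pathway. They encode a lysosomal amidase, a mitochondrial assembly factor, a cyclin, a phospholipid-binding annexin, a kinase, a phosphatase, an RNA-binding protein, a small cysteine-rich protein and the secreted matrix protein osteopontin.

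The table gives 1 FPKM value per gene and genotype, which is the number of fragments scaled to transcript length and library size. Both samples of a genotype were combined in it by the authors. No spread between samples, standard error or test can therefore be given for any difference below, and FPKM values do not show how deep each sample was sequenced. Every gene in the table was marked as significant by the authors, so that being listed already required a difference between genotypes, and the smallest absolute log2 ratio among the 515 genes was 0.41. The directions and sizes below are a description of 1 value against 1 value. The 9 gene identifiers matched the GENCODE M21 annotation of GRCm38.

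The regulatory sequence upstream of the neighbours with the largest ratios in each direction is shown here, as far as a promoter was given. Promoter windows of RefSeq on GRCm38.p6, reaching from 250 bases before to 50 bases after a transcript start and 300 bases long, were matched by symbol for 7 of the 9 genes, with 9 windows in all; *Cox18* and *Anxa3* had no entry. *Plac8* has a distal start, whose window is printed without the part inside an annotated exon (chr5:100572246-100572455, minus strand), and an internal start. Of the internal window, whose upstream bases lie in annotated exons, only 30 bases are printed (chr5:100563228-100563257, minus strand). The windows of *Naaa* (chr5:92278182-92278431, minus strand) and *Bmp2k* (chr5:96997439-96997688, plus strand) are upstream of the first exon. Capitals mark letters matching the STAT6 motif, TTC and GAA with 4 bases between them, or ACGTG, the core of the HIF motif, and lower case the rest.
Plac8 distal start: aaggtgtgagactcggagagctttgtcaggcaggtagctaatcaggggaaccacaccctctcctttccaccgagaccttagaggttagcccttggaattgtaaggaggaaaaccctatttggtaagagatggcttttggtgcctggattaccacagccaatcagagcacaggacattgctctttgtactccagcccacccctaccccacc
Plac8 internal start: ggttcaggTTCCGGTGAACGTGaagtgatg
Naaa: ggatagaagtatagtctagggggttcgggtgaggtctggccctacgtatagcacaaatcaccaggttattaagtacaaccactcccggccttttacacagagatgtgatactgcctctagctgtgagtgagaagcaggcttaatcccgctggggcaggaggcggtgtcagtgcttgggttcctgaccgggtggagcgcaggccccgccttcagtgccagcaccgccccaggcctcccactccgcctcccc
Bmp2k: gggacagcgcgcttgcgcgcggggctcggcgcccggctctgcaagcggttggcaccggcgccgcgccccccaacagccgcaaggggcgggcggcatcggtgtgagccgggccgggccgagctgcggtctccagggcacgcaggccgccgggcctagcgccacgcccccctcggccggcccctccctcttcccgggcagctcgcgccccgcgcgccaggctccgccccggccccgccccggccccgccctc

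These motifs were looked for on both strands because STAT6 acts downstream of IL-4 and HIF1α in Th9 cells. In the internal *Plac8* window the STAT6 letters begin 153 bases and the HIF letters 144 bases before the start, and they share a single base. The STAT6 letters were present in 1 of the 9 windows, as compared to 6.95% of all 32851 promoter windows, and ACGTG in 1 of 9, as compared to 19.6%. TGANTCA, the AP-1 motif, was in 0 of the 9 windows and in 7.81% of all windows, and GTAAACA, the FOXO motif, in 0 of 9 and in 3.65%. A match of letters is a description and not a binding site. The windows also differed in their number of CpG dinucleotides. *Bmp2k* had 45 and *Hnrnpdl* 42, both genes with a lower value in *Areg*-/- cells, but *Ptpn13*, which was higher, had 33. The distal *Plac8* window had 5 and each window of *Spp1* had 3, while the median of all windows was 7.

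Of the 9 neighbours, 6 had a higher FPKM in *Areg*-/- than in WT Th9 cells, namely *Cox18*, *Naaa*, *Ccng2*, *Plac8*, *Ptpn13* and *Spp1*. The other 3, *Anxa3*, *Bmp2k* and *Hnrnpdl*, were lower. Over all listed genes 69.1% were higher and 30.9% lower, so the split among the neighbours was close to that of the table as a whole. The ratio exceeded 2-fold in 6 of the 9 genes, as compared to 35.1% of all listed genes. Of these, 4 were more than 2-fold higher (background 25.2%) and 2 were more than 2-fold lower (background 9.9%). On log2(FPKM + 1), which shrinks the ratio of genes with a low FPKM, 2 of the 9 genes were past 2-fold, *Plac8* and *Naaa*, as compared to 15.0% of all listed genes. The median absolute log2 ratio was 1.17 for the neighbours and 0.80 for all listed genes. Ratios were also centred on the median of all listed genes, 0.62 on the log2 scale. Then 2 neighbours were more than 2-fold higher (background 6.99%) and 3 more than 2-fold lower (background 30.9%). All 159 lower listed genes pass 2-fold after this centring, because the smallest absolute log2 ratio in the table is 0.41. The count of lower genes past 2-fold therefore only restates their direction. As the genes were proposed with these values known, nothing particular to them is read from these counts.

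**Figure D1:**
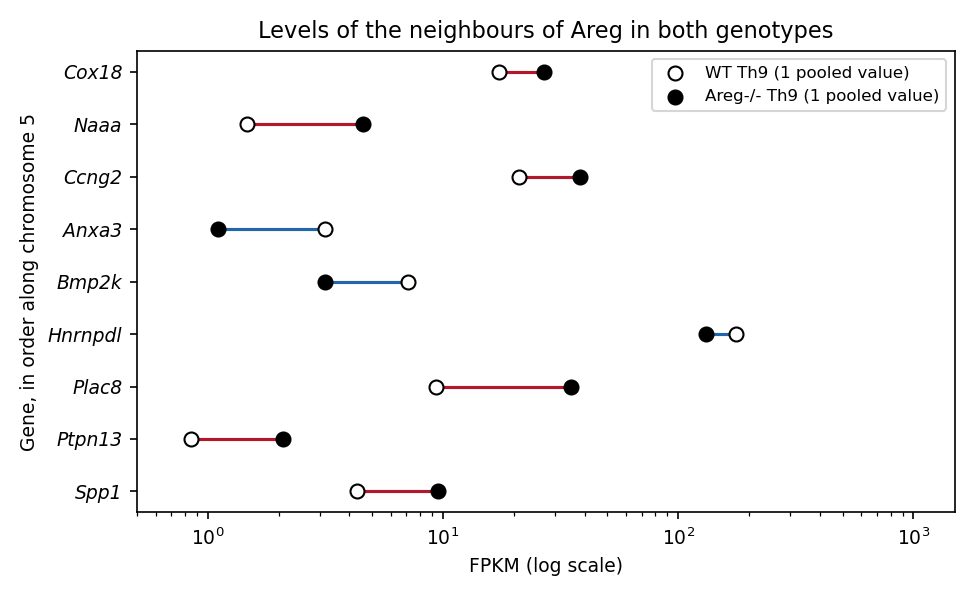
FPKM (log axis) of the 9 neighbours in WT (open circles) and *Areg*-/- (filled circles) Th9 cells, each circle being the single value that combines both samples of a genotype, in chromosomal order. Red lines join the 6 genes that were higher and blue lines the 3 that were lower in *Areg*-/- cells, from *Ptpn13* at 0.851 to *Hnrnpdl* at 176.6 FPKM in WT cells.

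*Plac8* had the largest ratio. It encodes a small cysteine-rich protein that is found in several kinds of immune cells. The gene (ENSMUSG00000029322.12) lies from 100553725 to 100572245 on the minus strand, 9.41 Mb from *Areg*, with 5 exons in its longest transcript and it overlaps no annotated gene. The level was 9.31 FPKM in WT as compared to 35.2 FPKM in *Areg*-/- Th9 cells, a 3.78-fold higher level and a log2 ratio of 1.92. By log2 ratio *Plac8* stood at position 21 of the 356 higher genes, and at position 4 of the 297 higher genes with at least 1 FPKM in both genotypes. By FPKM it moved from position 221 of the 515 listed genes in WT to position 92 in *Areg*-/- cells.

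*Naaa* followed with the second largest ratio. Its product, N-acylethanolamine acid amidase, is a lysosomal enzyme that breaks down lipid amides such as palmitoylethanolamide. The gene (ENSMUSG00000029413.14; 92257659 to 92278170, minus strand) is the nearest listed gene towards the chromosome end, 1.11 Mb from *Areg* with 9 protein-coding genes in between. It had 1.46 FPKM in WT as compared to 4.56 FPKM in *Areg*-/- cells, a 3.12-fold higher level and a log2 ratio of 1.64. Of 8 genes for enzymes and the receptor PPARα of N-acylethanolamine metabolism, *Naaa* was the only one listed, beside 2.20% of annotated protein-coding genes. This list was drawn up around *Naaa*, so it held a listed gene from the outset. *Faah*, *Napepld* and *Asah1* were not among the listed genes.

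*Ptpn13* and *Spp1* are the neighbours farthest from *Areg*. *Ptpn13* (ENSMUSG00000034573.14; 103425192 to 103598303, plus strand; 12.3 Mb from *Areg*) encodes a large intracellular tyrosine phosphatase with PDZ domains, and its longest transcript has 48 exons. Its value was 0.851 FPKM in WT as compared to 2.10 FPKM in *Areg*-/- cells, which is 2.46-fold higher with a log2 ratio of 1.30, and it is the only neighbour below 1 FPKM in a genotype. *Gm42620* overlaps it on the opposite strand, and as the use of strand in counting is not given in the sources used here, reads of both could be mixed. Of 17 non-receptor tyrosine phosphatase genes, *Ptpn13* was the only one listed, beside 2.20% of annotated protein-coding genes. The list was drawn up around *Ptpn13*, so it held a listed gene from the outset.

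*Spp1* (ENSMUSG00000029304.14; 104435118 to 104441050, plus strand; 13.3 Mb from *Areg*) encodes osteopontin, which is secreted and binds integrins and CD44. The annotated gene *Gm42793* overlaps *Spp1* on the same strand, so reads of both could be mixed. *Spp1* had 4.31 FPKM in WT as compared to 9.49 FPKM in *Areg*-/- cells, a 2.20-fold higher level and a log2 ratio of 1.14. The other 4 genes of its family (*Ibsp*, *Mepe*, *Dmp1* and *Dspp*), which stand side by side with it on the chromosome, were not listed. Of 10 genes for osteopontin receptors, 3 were listed, beside 2.20% of annotated protein-coding genes, and 69.1% of listed genes were higher. The lists of related genes were chosen with earlier results of these data known, and their counts were not tested. The integrin gene *Itgb3* was higher (17.7 FPKM in WT, 26.2 FPKM in *Areg*-/- cells) and so was *Itgb7* (45.6 and 68.1 FPKM), whereas *Itgb1* was lower (69.8 and 44.6 FPKM). *Cd44* was not among the listed genes.

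*Ccng2* and *Cox18* were higher by less than 2-fold. *Ccng2* (ENSMUSG00000029385.14; 93267257 to 93276231, plus strand; 2.12 Mb from *Areg*) encodes cyclin G2, a cyclin linked to cell cycle arrest and a known target of FOXO transcription factors. Its value was 21.0 FPKM in WT as compared to 38.3 FPKM in *Areg*-/- cells, with a log2 ratio of 0.86. The related cyclin gene *Ccni* lies nearby and was not listed, and neither was *Ccng1*. Of 17 FOXO target genes, 5 were listed, 4 with a higher and 1 with a lower value. For comparison, 2.20% of annotated protein-coding genes were listed and 69.1% of listed genes were higher. The 2.20% counts genes whether or not Th9 cells express them, and the FOXO list was chosen with earlier results of these data known. Enrichment of FOXO target genes was not tested. Besides *Ccng2*, the higher FOXO target genes were *Klf2*, which encodes a transcription factor of quiescent T cells (1.39 and 3.17 FPKM), the cell cycle inhibitor gene *Cdkn1b* (17.6 and 25.6 FPKM) and *Sesn1* (8.13 and 12.2 FPKM). *Bcl6*, a transcriptional repressor, was lower, with 1.56 FPKM in WT as compared to 0.723 FPKM in *Areg*-/- cells. The median log2 ratio of these 5 genes was 0.58, as compared to 0.62 for all listed genes.

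*Cox18* (ENSMUSG00000035505.14; 90214724 to 90224001, minus strand) is the nearest listed gene, 0.916 Mb from *Areg*, and the only one of the 9 on the side of the chromosome start. It encodes a protein of the inner mitochondrial membrane needed to insert a subunit of cytochrome c oxidase. It had 17.3 FPKM in WT as compared to 26.8 FPKM in *Areg*-/- cells. Its log2 ratio of 0.63 was almost the median of all listed genes, and it became 0.0034 when centred on it. Of 26 genes for subunits and assembly factors of this oxidase, 2 were listed, beside 2.20% of annotated protein-coding genes. Both were higher, as were 69.1% of all listed genes. The one listed besides *Cox18* was the mitochondrially encoded *mt-Co1*, with 919.8 FPKM in WT as compared to 1368 FPKM in *Areg*-/- cells.

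Lower values were found for *Anxa3*, *Bmp2k* and *Hnrnpdl*, which follow each other among the listed genes. *Anxa3* and *Bmp2k* are also adjacent among all protein-coding genes, whereas unlisted genes lie between *Bmp2k* and *Hnrnpdl*. Between *Areg* and *Bmp2k* lie 57 protein-coding genes, and between *Areg* and *Hnrnpdl* 72, most of which were not listed. *Anxa3* (ENSMUSG00000029484.12; 96793339 to 96845966, plus strand; 5.64 Mb from *Areg*) encodes annexin A3, a calcium-dependent phospholipid-binding protein best known from neutrophils. Its value was 3.16 FPKM in WT as compared to 1.10 FPKM in *Areg*-/- cells, a 2.86-fold lower level and a log2 ratio of -1.52, at position 22 of the 159 lower genes. The annotated gene *Gm42603* overlaps *Anxa3* on the same strand, so reads of both could be mixed. Of 12 annexin genes, 2 were listed, beside 2.20% of annotated protein-coding genes. The 2 annexin genes differed in direction, since *Anxa2* had 77.3 FPKM in WT as compared to 114.4 FPKM in *Areg*-/- cells.

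*Bmp2k* (ENSMUSG00000034663.13; 96997689 to 97091867, plus strand; 5.85 Mb from *Areg*) is the gene right after *Anxa3*, and these 2 were the only neighbours adjacent to each other among protein-coding genes. It encodes a serine/threonine kinase related to AAK1, a kinase of endocytic vesicles. The level was 7.07 FPKM in WT as compared to 3.15 FPKM in *Areg*-/- cells, which is 2.25-fold lower with a log2 ratio of -1.17. *Paqr3* overlaps *Bmp2k* on the opposite strand, and the annotated gene *Gm43145* overlaps it on the same strand. The locus given in the table, ending at 97111596, extends past the annotated end of *Bmp2k*. The value of *Bmp2k* is uncertain to that extent. For the other 8 neighbours the locus in the table was that of the annotation. The related kinase genes *Aak1*, *Gak* and *Stk16* were not listed.

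*Hnrnpdl* (ENSMUSG00000029328.15; 100033577 to 100039664, minus strand; 8.89 Mb from *Areg*) encodes an RNA-binding protein of the hnRNP family that takes part in splicing and mRNA stability. It was the most abundant neighbour and had the smallest ratio, with 176.6 FPKM in WT as compared to 131.2 FPKM in *Areg*-/- cells, a 1.35-fold lower level and a log2 ratio of -0.43. By geometric mean of both genotypes it was at position 1 of the 159 lower genes, whereas by log2 ratio it was at position 153. Its closest relative *Hnrnpd*, also on chromosome 5, was not listed. Of 20 hnRNP genes *Hnrnpdl* was the only one listed, beside 2.20% of annotated protein-coding genes. The hnRNP list was drawn up around *Hnrnpdl*, so it held a listed gene from the outset.

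**Figure D2:**
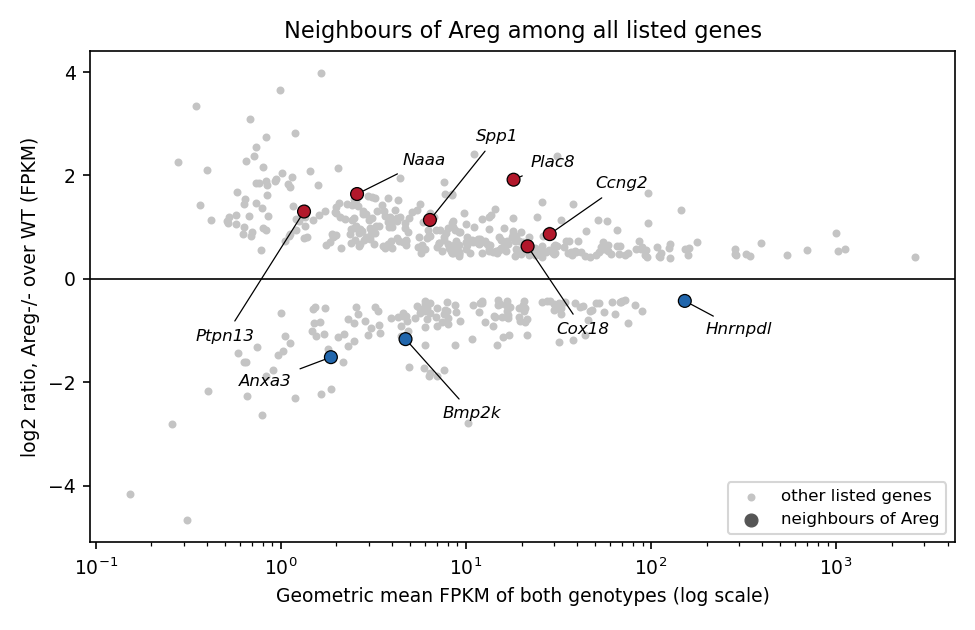
Log2 ratio of *Areg*-/- over WT FPKM against the geometric mean FPKM (log axis) for all 515 listed genes in grey, with the 9 neighbours in red (higher) and blue (lower). *Plac8* lies above most genes of similar level, *Hnrnpdl* is the most abundant of the lower genes, and no listed gene has an absolute log2 ratio under 0.41.

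The fragments behind these values differed between the neighbours. Multiplying FPKM by the longest annotated transcript gives the fragments per 1000000 mapped fragments that would arise if all came from it. For *Hnrnpdl* this was 486 in WT and 361.1 in *Areg*-/- cells, and for *Ccng2* 95.4 and 173.7. It was 23.1 and 35.7 for *Cox18*, 52.3 and 23.3 for *Bmp2k* and 11.4 and 43.0 for *Plac8*. The lowest values were those of *Naaa* (3.53 and 11.0), *Anxa3* (5.03 and 1.76), *Spp1* (6.49 and 14.3) and *Ptpn13* (6.73 and 16.6), so these 4 ratios rest on the fewest fragments.

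By distance, the 9 neighbours fell into runs of one direction, with the many genes between them that were not listed passed over. These runs are therefore not shown to be continuous stretches of the chromosome. From *Areg* outwards, all 3 genes within 5 Mb were higher, with log2 ratios from 0.63 to 1.64. Between 5 and 10 Mb 1 of 4 was higher, from -1.52 for *Anxa3* to 1.92 for *Plac8*. Both genes beyond 10 Mb were higher, with 1.14 and 1.30. Among these 9 genes, the size of the ratio showed no steady trend with distance. Only genes marked as significant could enter, so no conclusion on distance is drawn. Spearman's rho between the gap to *Areg* and the absolute log2 ratio was 0.13 over the 9 genes, which come from the same 4 samples and are not replicates, and it ranged from -0.12 without *Cox18* to 0.33 without *Naaa* when each gene was left out in turn. The median absolute log2 ratio was 0.86 within 5 Mb, 1.34 from 5 to 10 Mb and 1.22 beyond 10 Mb. The genes just outside the limit were *Gbp10* and *Gbp6*, interferon-induced guanylate-binding protein genes at 14.07 and 14.12 Mb, both of which were lower (1.67 and 0.496 FPKM for *Gbp10*, 12.4 and 6.98 FPKM for *Gbp6*, in WT and *Areg*-/- cells). On the other side, the next listed gene after *Cox18* was *Bend4* at 23.7 Mb, with 1.45 and 2.37 FPKM.

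**Figure D3:**
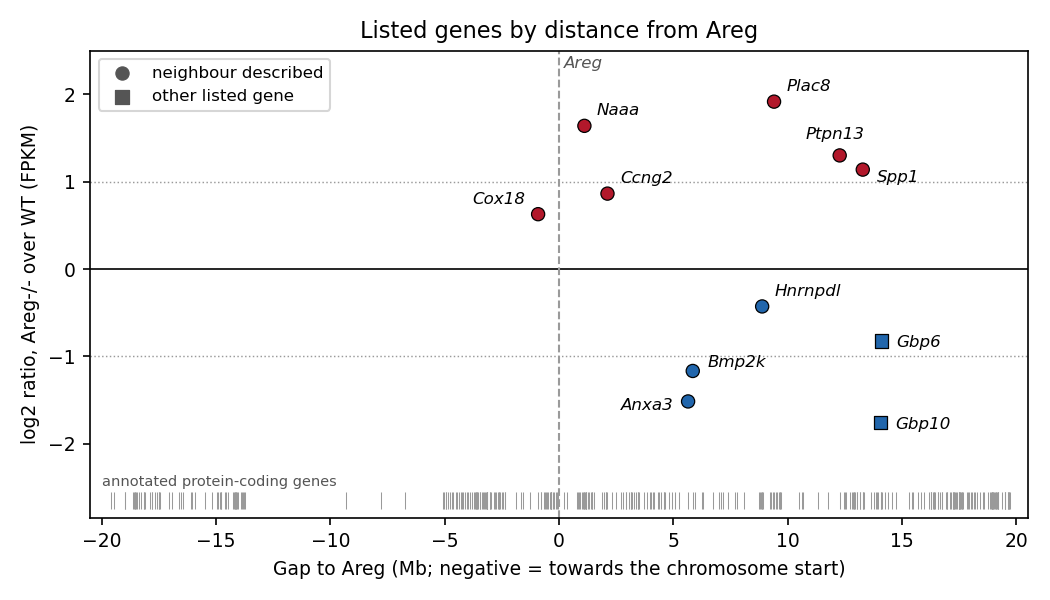
Log2 ratio of *Areg*-/- over WT FPKM against the gap to *Areg* in Mb (negative towards the chromosome start) for the listed genes within 20 Mb. Circles are the 9 neighbours, squares the Gbp genes, dotted lines mark 2-fold, and ticks at the bottom mark annotated protein-coding genes. Towards the chromosome end lie 8 of the 9 neighbours, in runs of higher, lower and higher values among listed genes only.

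The 9 neighbours were unevenly placed around *Areg*. Towards the chromosome start, 1 of the 81 protein-coding genes annotated within 14 Mb was listed (1.23%), and beyond *Cox18* none of 63. Towards the chromosome end, 8 of 112 were listed (7.14%). Both sides together gave 9 of 193 genes (4.66%), as compared to 17 of 1066 on the rest of chromosome 5 (1.59%) and 483 of 21951 on all chromosomes (2.20%). The share depended on the window, with 3 of 125 genes within 5 Mb (2.40%), which is close to that of all chromosomes, 7 of 161 within 10 Mb (4.35%) and 11 of 325 within 20 Mb (3.38%). These shares were not tested, and they count all annotated genes, whether or not Th9 cells express them. The neighbours were chosen with earlier results of these data known, and the split by side after seeing the data. Nothing particular to this region is therefore read from these shares. None of the 11 genes for EGFR ligands and receptors, and none of the 11 CXC chemokine genes of the region, were listed. A gene that was not listed has no value here, and this does not show that it was equal between genotypes. The other 17 listed genes of chromosome 5 were higher in 12 cases (70.6%), and 5 of them (29.4%) were past 2-fold, with a median absolute log2 ratio of 0.67.

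**Figure D4:**
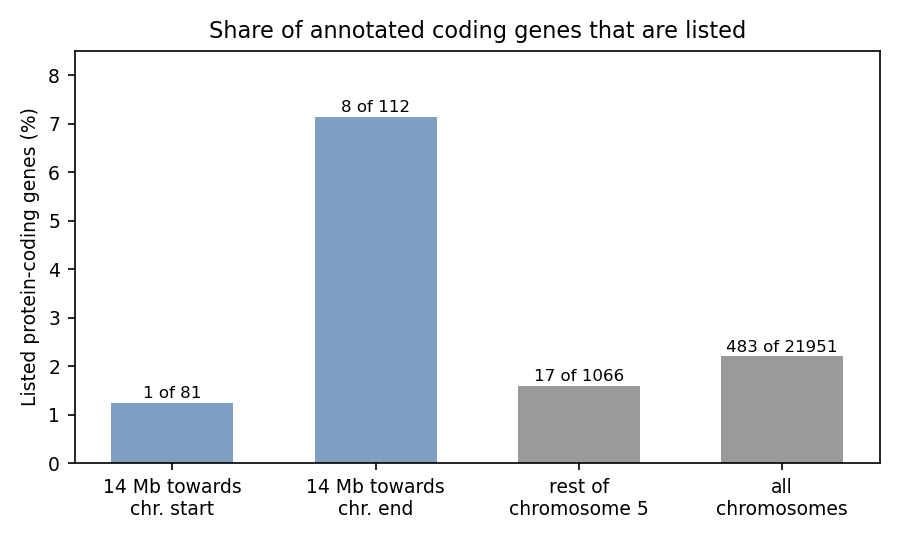
Share of annotated protein-coding genes that are in the deposited table (bars, %), with the number listed of the number annotated above each bar. The 14 Mb from *Areg* towards the chromosome end had 7.14%, as compared to 1.23% towards the chromosome start and 2.20% over all chromosomes. The neighbours were chosen with earlier results known and the split by side after seeing the data, so the bars are a description only.

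*Anxa3*, *Spp1*, *Naaa* and *Plac8* are also expressed in myeloid and other immune cells, and markers of these cells were therefore looked for. According to the methods, the cultures were started from CD4+CD62L+ cells purified by flow cytometric sorting. None of 8 macrophage and monocyte markers, 5 dendritic cell markers and 5 B cell markers were listed. A marker that was not listed has no value here, and other genes of these cells were not looked at. Such cells are therefore not shown to be absent. Of 8 neutrophil markers, only *Ly6g* was listed, with a low value of 0.279 FPKM in WT as compared to 3.51 FPKM in *Areg*-/- cells. This direction is opposite to that of *Anxa3* and the same as that of *Spp1*, *Naaa* and *Plac8*. Among 7 CD8 T and NK cell markers, 3 were present, and all 3 were higher in *Areg*-/- cells, namely *Gzma* (13.7 and 70.8 FPKM), *Klrd1* (1.44 and 4.40 FPKM) and *Cd8a* (2.13 and 3.32 FPKM). Over all listed genes 69.1% were higher, and 2.20% of annotated protein-coding genes were listed. Their part in the values of the neighbours was not tested. In bulk RNA, more cells of a type and more RNA per cell cannot be told apart. Of the 8 general T cell markers none was listed, so the label could not be checked by them. Among 9 Th9 and Th2 genes, *Il9* (3.82 and 1.24 FPKM), *Il4* (101.2 and 56.0 FPKM) and *Il10* (9.13 and 15.6 FPKM) were listed.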

How the data were processed

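RNA sequencing data of 2 WT and 2 *Areg*-/- Th9 samples, grouped by their labels, were used as 1 deposited table. According to the methods, the authors generated 25000000 to 30000000 paired-end reads per sample, cleaned them, aligned them to GRCm38 with TopHat2 and Bowtie2, and used HTSeq-count and Cuffdiff. The deposited FPKM is that of Cuffdiff, a single value per genotype in which the authors combined both samples. The fold changes, test statistics, p-values and q-values in the same table are the authors' comparison and were not used. All 515 rows are marked as significant.

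From both FPKM values, log2 ratios of *Areg*-/- over WT were computed without a pseudocount. A ratio above 2 or below its inverse was called past 2-fold, and no test was run. Positions, exons and overlaps came from GENCODE M21 (GRCm38, counted from 1), in which 514 of the 515 identifiers had a position on a reference chromosome. The distance is the gap between gene ends. Promoters were those of RefSeq (GRCm38.p6). The calculation of ratios and of Spearman's rho was run on made-up values without noise and with known results. This checks the code only and not the findings, distances, windows or motifs. The named genes were all 9 neighbours, the nearest listed genes outside the limit, and listed members of the gene lists given in the text. A gene of 1 list is not reported here and was left out of its counts. The neighbours and lists were chosen with earlier results of these data known. Alternatives were other pseudocounts (0.1 and 1), fold limits, an FPKM of at least 1, centring, genes without overlaps, other distances and windows, and median transcript lengths. Calculations were done in Python 3.11.15 with pandas 2.3.3, numpy 2.4.6 and scipy 1.17.1, and figures with matplotlib 3.10.9.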

Additional observations from a re-analysis of the deposited data

How the results depend on the processing

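No paired analysis was possible because samples have no values of their own here. Leaving out a replicate, the replicate block, and DESeq2 against edgeR were therefore not run. No neighbour changed direction under any alternative that was run. Pseudocounts, fold limits and the leaving out of genes cannot change a direction, so for these the outcome was fixed in advance. Centring could only turn a higher gene, and it left *Cox18* at a log2 ratio of 0.0034. Of the 4 neighbours more than 2-fold higher, 2 were left on log2(FPKM + 1), 2 after centring on the median log2 ratio over the table and 0 at a limit of 4-fold. Of the 2 neighbours more than 2-fold lower, 0 were left on log2(FPKM + 1) and 0 at 4-fold. A pseudocount shrinks the ratio of genes with a low FPKM, and centring lowers all ratios alike. Of the 3 lower neighbours, 1, *Hnrnpdl*, overlaps no other annotated gene. Spearman's rho between distance and ratio was 0.25 with the signed ratio, and from -0.12 to 0.33 with each gene left out. The share of annotated genes that were listed was 2.40% within 5 Mb. Split by side, as chosen after seeing the data, it was 1.23% towards the chromosome start and 7.14% towards the end. Without the Gbp genes it was 7.34% towards the end. The listed Gbp genes lie beyond 14 Mb, so this removed only Gbp genes that were not listed. The share could therefore only rise, and this alternative does not test the result. The median over the neighbours of fragments per 1000000 in WT was 11.4 with the longest and 6.90 with the median transcript length. FPKM values do not show the depth of a sample, so no limit from depth is given.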
